A study of Mus musculus with 11 samples.

Results

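The 8 genes described here are those of the core TGF-beta route and its brakes: the ligand Tgfb1, the receptors Tgfbr1 and Tgfbr2, the signal-carrying SMADs Smad2, Smad3 and Smad4, the inhibitory SMAD Smad7, and the SMAD corepressor gene Skil. They were listed by name, a rule that reads no measured value, with earlier results of these data known, and all 8 are among the 27998 genes counted. The data are single-cell RNA-seq of macs sorted from mouse brain (microglia), colon (CMs), liver (Kupffer cells, KCs), lung (alveolar macs, AMs) and spleen (SMs). Each tissue gave 1 library labelled Zeb2fl/fl (WT here) and 1 labelled Fcgr1-crexZeb2fl/fl (Zeb2KO), and the liver gave an 11th library labelled Nr1h3fl/fl, a CRE-negative control. The mice were C57Bl/6 of 6 to 8 weeks and of mixed sex. Fcgr1 is the gene of the mac receptor CD64. The study's methods name Clec4f-cre for KCs and Itgax-cre for AMs, whereas the labels name Fcgr1-cre for these libraries also, so which Cre was used there is not settled. The study describes macs that kept a Zeb2 allele in the Zeb2KO organs other than the brain.

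TGF-beta binds the type II receptor TGFBR2, which recruits and activates the type I receptor TGFBR1. The active receptor phosphorylates SMAD2 and SMAD3, which join SMAD4 and enter the nucleus to control transcription, while SMAD7 and SKIL are induced by the pathway and feed back on it. ZEB2 is a repressor that was first found through its binding to SMADs. Microglia and AMs are both known to need TGF-beta signalling to acquire or keep their identity.

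The libraries held 11133411 to 47400786 UMIs (unique molecular identifiers, each standing for 1 captured RNA molecule). After filters, 2830 to 6974 macs were left in each. A level is given in CPM, the counts-per-million of a gene among all UMIs of the macs of a library, with the exact 95% Poisson interval, which covers counting error only. With 1 library per genotype and tissue, no test within a tissue was possible. A gene was called higher or lower there when it reached 20 CPM in 1 of the 2 libraries and changed at least 2-fold on a scale of CPM + 1. The difference between 2 control libraries could be gauged only in the liver, where 95% of the genes at that level differed by less than 0.70 on the log2 scale between WT and Nr1h3fl/fl WT KCs, which come from different floxed lines. At most 1.45% of the cell barcodes of a library were shared with another library. The microglial marker list summed to 15117 CPM or more in both brain libraries and to 452 CPM or less in the others, and the KC list to 7059 CPM or more in the liver libraries and to 788 CPM or less elsewhere. KCs and AMs were sequenced on another instrument than the remaining cells, so the instrument cannot be told apart from those tissues. Zeb2 itself was not lower in any Zeb2KO library (log2 ratios of 0.28 to 1.88). The libraries count RNA at its 3′ end, which does not show a deleted exon, and the labels were therefore not checked by it.

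The upstream sequences of 4 members were at hand in RefSeq (GRCm38.p6), and those of Skil, Smad2, Smad4 and Smad7 were not. They are shown because Tgfb1, Tgfbr1 and Smad3 were highest in microglia and Tgfbr2 was not. Each could also be searched for a ZEB site, CACCTG, which reads CAGGTG on the other strand, and for SMAD sites. Each line gives the 250 bases before the start on the gene's strand, at chr7:25686752-25687001 (+), chr4:47352972-47353221 (+), chr9:63757995-63758244 (-) and chr9:116175364-116175613 (-), with CAGAC in capitals.
Tgfb1: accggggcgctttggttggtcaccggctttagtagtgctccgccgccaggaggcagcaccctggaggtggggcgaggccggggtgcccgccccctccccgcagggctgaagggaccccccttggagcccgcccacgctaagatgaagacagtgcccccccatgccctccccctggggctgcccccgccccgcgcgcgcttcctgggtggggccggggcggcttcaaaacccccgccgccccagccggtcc
Tgfbr1: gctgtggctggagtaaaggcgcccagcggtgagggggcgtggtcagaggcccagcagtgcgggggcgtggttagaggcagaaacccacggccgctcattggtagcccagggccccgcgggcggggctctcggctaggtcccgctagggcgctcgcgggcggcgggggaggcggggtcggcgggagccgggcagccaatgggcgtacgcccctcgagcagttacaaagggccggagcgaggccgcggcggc
Smad3: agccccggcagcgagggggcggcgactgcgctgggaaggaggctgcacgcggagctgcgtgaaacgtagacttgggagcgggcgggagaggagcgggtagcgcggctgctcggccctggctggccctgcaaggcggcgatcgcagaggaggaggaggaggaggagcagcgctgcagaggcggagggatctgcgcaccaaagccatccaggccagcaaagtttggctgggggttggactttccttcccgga
Tgfbr2: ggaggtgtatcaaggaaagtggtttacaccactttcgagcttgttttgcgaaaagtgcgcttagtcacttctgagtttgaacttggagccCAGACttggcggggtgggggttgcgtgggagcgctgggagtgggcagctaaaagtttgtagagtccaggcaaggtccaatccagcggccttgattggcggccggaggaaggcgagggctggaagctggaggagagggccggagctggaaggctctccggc

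With 50 bases past the start included, and with a further Tgfbr1 start, 5 promoters of the 4 genes were searched on both strands. None of the 5 held CACCTG or CAGGTG, which 20.2% of 32851 promoters of the same length hold. None held GTCTAGAC, found in 0.213% of promoters. The short SMAD box CAGAC or GTCTG, found in 49.6% of promoters, was present in 2 of the 5, at position -160 of Tgfbr2 and at position -203 of the further Tgfbr1 start, where -1 is the last base before the start. These are letter matches in short windows. Shorter forms of the ZEB site were not searched for, and CACCT, read as AGGTG on the other strand, is present in the Tgfb1 and Tgfbr2 lines above.

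The first question was how the levels of these genes differed between the tissues. The 8 genes followed different tissue patterns, and the sharpest contrasts lay between microglia and AMs. In edgeR's quasi-likelihood F test over the 5 pairs of libraries, all 8 genes differed between tissues at an adjusted p below 0.05, beside 82.4% of the 12126 genes tested, so the share of members is near that of all genes. Adjusted p (edgeR) ran from 0.000181 for Smad7 to 0.0221 for Smad2.

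**Figure D1:**
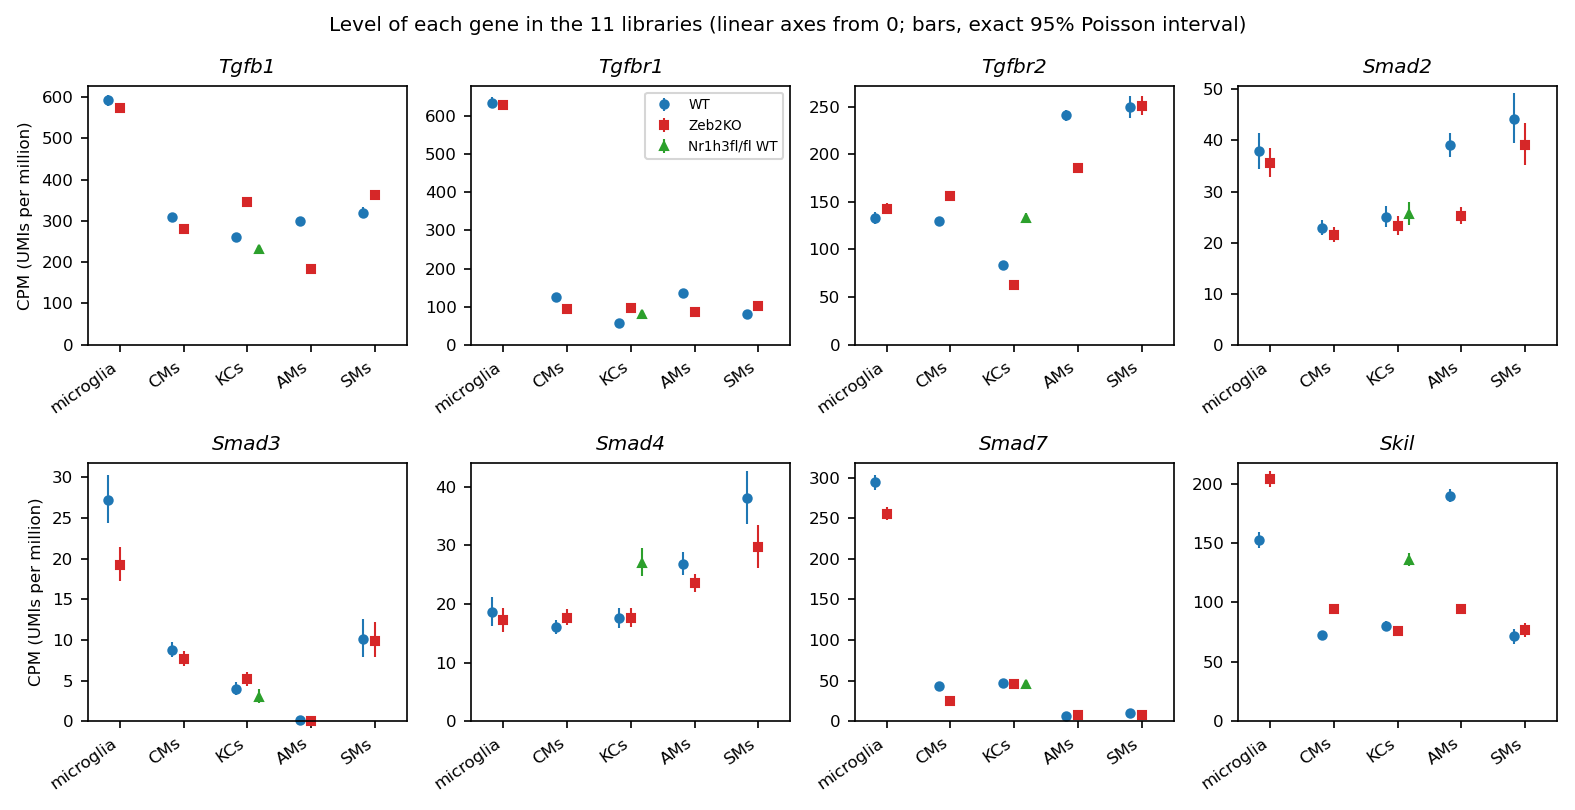
Level of the 8 genes in CPM (linear axes from 0) in the WT, Zeb2KO and Nr1h3fl/fl WT libraries of each tissue, with exact 95% Poisson intervals as bars. Tgfb1, Tgfbr1, Smad3 and Smad7 stood highest in both libraries of microglia, Smad3 was at or near 0 in both AM libraries, and Tgfbr2 was lowest in the WT and Zeb2KO libraries of KCs.

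Tgfb1, the ligand gene, was measured at 592 CPM in WT and 574 CPM in Zeb2KO microglia. The levels were 310 and 281 CPM in WT and Zeb2KO CMs, 261 and 345 CPM in KCs, 300.0 and 184 CPM in AMs, and 320.0 and 362 CPM in SMs. KCs of the Nr1h3fl/fl WT library gave 231 CPM. Both brain libraries thus lay above every other library, while the other 4 WT levels lay within the spread between the liver controls at each step of their order. The tissue difference of Tgfb1 (edgeR, adjusted p = 0.0161) rested on the brain, as without that pair the adjusted p was 0.382.

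Tgfbr1, the type I receptor gene, showed the same lead of microglia on a larger scale. It reached 635 CPM in WT and 629 CPM in Zeb2KO microglia. Among the other tissues the WT and Zeb2KO levels were 125 and 93.2 CPM in CMs, 57.3 and 95.2 CPM in KCs, 136 and 86.6 CPM in AMs and 81.5 and 101 CPM in SMs, and the Nr1h3fl/fl WT KCs held 80.5 CPM. WT microglia exceeded the next tissue, AMs, by 2.22 on the log2 scale, and the steps further down were each within the liver control spread. Here too the tissue difference (edgeR, adjusted p = 0.000791) was lost without the brain pair, at an adjusted p of 0.194.

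Tgfbr2, the type II receptor that binds the ligand, had another order and did not lead in microglia. Its levels were 249 and 251 CPM in WT and Zeb2KO SMs, 241 and 185 CPM in AMs, 133 and 143 CPM in microglia, 130 and 156 CPM in CMs, and 83.9 and 62.2 CPM in KCs. The KC values were the lowest of the 5 pairs. The Nr1h3fl/fl WT KCs held 133 CPM, however, above the other WT KCs by 0.66 on the log2 scale and level with microglia and CMs. The place of KCs in this order therefore depended on the control library used. In WT, SMs and AMs did not differ beyond the liver control spread, and AMs stood above microglia by 0.86.

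Smad2, a receptor-activated SMAD, varied least among the tissues. WT and Zeb2KO levels were 44.1 and 39.1 CPM in SMs, 39.0 and 25.2 CPM in AMs, 37.9 and 35.6 CPM in microglia, 25.05 and 23.3 CPM in KCs and 22.9 and 21.5 CPM in CMs, with 25.6 CPM in the Nr1h3fl/fl WT KCs. No step in the WT order exceeded the liver control spread. Its tissue difference (edgeR, adjusted p = 0.0221) was lost when the colon, liver or spleen pair was left out, with adjusted p of 0.0667 to 0.0806.

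Smad3, the other receptor-activated SMAD, marked the widest contrast of all 8 genes. WT and Zeb2KO microglia held 27.2 and 19.3 CPM. SMs held 10.1 and 9.88 CPM, CMs 8.77 and 7.70 CPM, and KCs 3.97 and 5.16 CPM, with 3.01 CPM in the Nr1h3fl/fl WT KCs. In WT AMs 3 UMIs of Smad3 were counted among 27444872 (0.109 CPM, interval 0.0225 to 0.319), and in Zeb2KO AMs 0 among 37267866, for which the exact upper limit is 0.0990 CPM and the limit at 3 UMIs 0.0805 CPM. AMs were thus the only cells among the 5 with almost no Smad3 RNA, in both of their libraries. WT microglia held 249 times the level of WT AMs, with a counting interval of 84.5 to 1214-fold. WT KCs, the next lowest of the 5 WT libraries, held 36.3 times (12.1 to 179), and Nr1h3fl/fl WT KCs 27.6 times (8.97 to 138). The order below microglia was SMs, CMs, KCs and AMs, in which SMs and CMs alone did not differ beyond the liver control spread. That spread was taken over genes at 20 CPM, and Smad3 lay below this level in all but WT microglia. The tissue difference had an adjusted p of 0.000585 (edgeR) and held in each of the 9 alternative fits of that test.

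Smad4, the shared partner of the activated SMADs, was measured at 38.0 and 29.6 CPM in WT and Zeb2KO SMs and at 26.9 and 23.5 CPM in AMs. It was lower in microglia (18.6 and 17.2 CPM), KCs (17.6 and 17.7 CPM) and CMs (16.1 and 17.7 CPM), with 27.1 CPM in the Nr1h3fl/fl WT KCs. Both SM libraries lay above the WT and Zeb2KO libraries of every other tissue, although no single step in the WT order exceeded the liver control spread. Its adjusted p for tissue was 0.00887 (edgeR).

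Smad7, the inhibitory SMAD that competes at the receptor, gave the strongest tissue difference by adjusted p. It held 294 CPM in WT and 256 CPM in Zeb2KO microglia. KCs followed at 47.5 and 45.8 CPM with 45.5 CPM in the Nr1h3fl/fl WT library, and CMs at 43.0 and 24.5 CPM. SMs held 9.64 and 7.66 CPM and AMs 6.41 and 7.003 CPM. In WT, microglia stood above KCs by 2.60 on the log2 scale, KCs and CMs lay within the liver control spread of each other, and CMs stood above SMs by 2.05. WT microglia held 45.9 times the level of WT AMs.

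Skil, which encodes the SMAD corepressor SnoN, was highest in WT AMs at 189.8 CPM and in Zeb2KO microglia at 204 CPM. WT microglia held 152 CPM and Zeb2KO AMs 94.3 CPM. The levels in WT and Zeb2KO cells were 80.3 and 75.5 CPM in KCs, 72.5 and 94.4 CPM in CMs and 71.3 and 76.4 CPM in SMs. In the other control library of KCs, Nr1h3fl/fl WT, Skil was at 136 CPM, above the other WT KCs by 0.75, which is outside the spread of 95% of genes between those libraries. The tissue difference of Skil (edgeR, adjusted p = 0.0195) was lost with the Nr1h3fl/fl WT library as the liver WT (adjusted p = 0.0642) or without the spleen pair (0.0896).

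Across the 11 libraries Tgfb1 and Tgfbr1 varied together most closely among the members (Pearson r = 0.86 of log2 levels), whereas Smad4 and Smad7 ran opposite (r = -0.65). The libraries of a tissue are not independent of each other in such a comparison. The pattern of Tgfbr1 was most like that of Smap2 and Tmem100 (r = 0.98 for each), of Smad3 most like Serinc3 and Hpgds (0.98 each), and of Smad7 most like Ptgr2 (0.98) and C87436 (0.97), among 8022 genes that reached 20 CPM. For Tgfb1 they were Uqcc1 and Rpn2 (0.97 each), for Tgfbr2 Dst and Camsap2 (0.94 each), for Smad2 Arhgap39 and Atg16l1 (0.99 each), for Smad4 Tnrc6c and Fam199x (0.97 each) and for Skil Nfya (0.91) and Ndufaf4 (0.88).

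The second question was whether loss of ZEB2 changed these genes. No shift common to the 5 tissues was called for any of the 8 members. Across all 12126 genes, edgeR's quasi-likelihood test with the tissue as a block called 0 (0.0%), although 1482 had an unadjusted p under 0.05 and DESeq2 called 379. Of the members, 0 had an unadjusted p under 0.05 in edgeR and 0 were called by DESeq2. The log2 fold changes ran from -0.20 (SE 0.18) for Smad7 to 0.05 (SE 0.19) for Tgfbr1. The edgeR adjusted p was lowest for Smad2, at 0.481 with a log2 fold change of -0.16 (SE 0.08), and Smad2 was lower in Zeb2KO in 5 of 5 tissues. In microglia, CMs, KCs and SMs the counting interval of its ratio held 1 (0.83 to 1.06, 0.85 to 1.03, 0.83 to 1.04 and 0.76 to 1.03). In AMs the interval was 0.59 to 0.71, beside a median log2 ratio of -0.31 for all genes. How many of all genes had the same sign in 5 of 5 tissues was not counted.

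**Figure D2:**
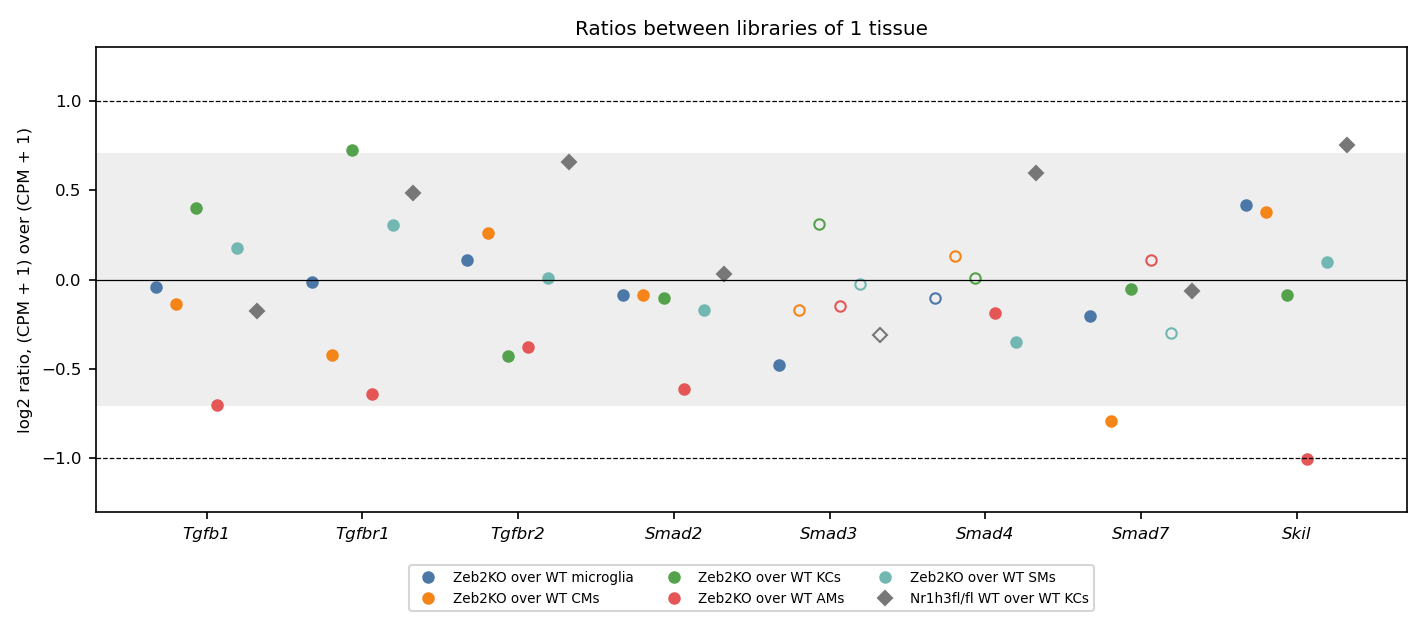
Log2 ratio of (CPM + 1) of each gene between libraries of 1 tissue (circles, Zeb2KO over WT; diamonds, Nr1h3fl/fl WT over WT KCs); open symbols mark genes under 20 CPM in both libraries, the grey band spans 95% of all genes between the 2 liver controls and dashed lines mark a 2-fold change. Skil in AMs alone reached the lower line, at -1.001, while the liver controls differed by 0.75 for Skil and 0.66 for Tgfbr2.

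In microglia 0 of the 7 members at 20 CPM were called, beside 8.34% of all genes there. Tgfb1 and Tgfbr1 differed by less than 0.05 on the log2 scale between the genotypes. Skil was higher in Zeb2KO microglia by 0.41, and Smad3 lower by 0.48 (ratio 0.707, counting interval 0.605 to 0.826). Both lay within the spread of the liver controls.

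In CMs 0 of 6 members were called, beside 1.56% of genes. Smad7 came nearest, with a log2 ratio of -0.79 (43.0 against 24.5 CPM; ratio 0.568, interval 0.524 to 0.616), past the spread of the liver controls, and Tgfbr1 had -0.42. The colon cells fell into clusters of very different Smad7 and Tgfbr1 levels, and the libraries held them in different shares. In WT CMs, Smad7 ran from 4.19 CPM in a cluster led by Retnla to 85.3 CPM in one led by Pgf and Cxcl1, and Tgfbr1 from 34.1 to 256 CPM in the same clusters. A cluster led by H2-M2 and Lag3, with 76.4 CPM of Smad7 and 190.0 CPM of Tgfbr1 in WT, made up 27.0% of WT and 10.6% of Zeb2KO CMs. The Retnla cluster, low in both genes, made up 4.99% of WT and 15.1% of Zeb2KO CMs. A cluster led by Cd163, also low in both (9.89 CPM of Smad7 and 48.9 CPM of Tgfbr1 in WT), went the other way, from 22.9% of WT to 1.74% of Zeb2KO CMs. With each of the 9 clusters held by both libraries weighted by its WT share, a calculation added after the cluster levels were seen, the log2 ratio was -0.07 for Tgfbr1 and -0.35 for Smad7. Of the other members, Tgfb1 moved from -0.14 to -0.03, Tgfbr2 from 0.26 to 0.22 and Skil from 0.38 to 0.25. Smad2 moved from -0.08 to -0.14, Smad3 from -0.17 to -0.51 and Smad4 from 0.13 to 0.29. These weights give little part to a cluster led by Hp, which made up 1.15% of WT and 19.2% of Zeb2KO CMs. In that cluster Tgfbr1 was at 102 CPM in WT and 67.5 CPM in Zeb2KO cells. In all colon clusters enriched in Zeb2KO cells (defined below) Tgfbr1 was at 69.1 CPM, against 125 CPM in WT CMs outside them. Smad7 was at 27.7 and 43.0 CPM. The weighted ratios therefore cannot tell how much of a difference lay in cluster shares. Smad7 was lower in the Zeb2KO cells of 5 of the 9 clusters, and the Cd163 cluster rested on 67 Zeb2KO cells. Within the H2-M2 cluster Tgfbr1 was 190.0 CPM in WT and 195 CPM in Zeb2KO cells, and Smad7 was 76.4 and 53.0 CPM. Tgfbr2 ran the other way among the clusters, with 213 CPM in a Ccl8-led cluster and 70.4 CPM in an Ear2- and Ccr2-led one of WT CMs, and was higher in the Zeb2KO cells of 7 of the 9 clusters.

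**Figure D3:**
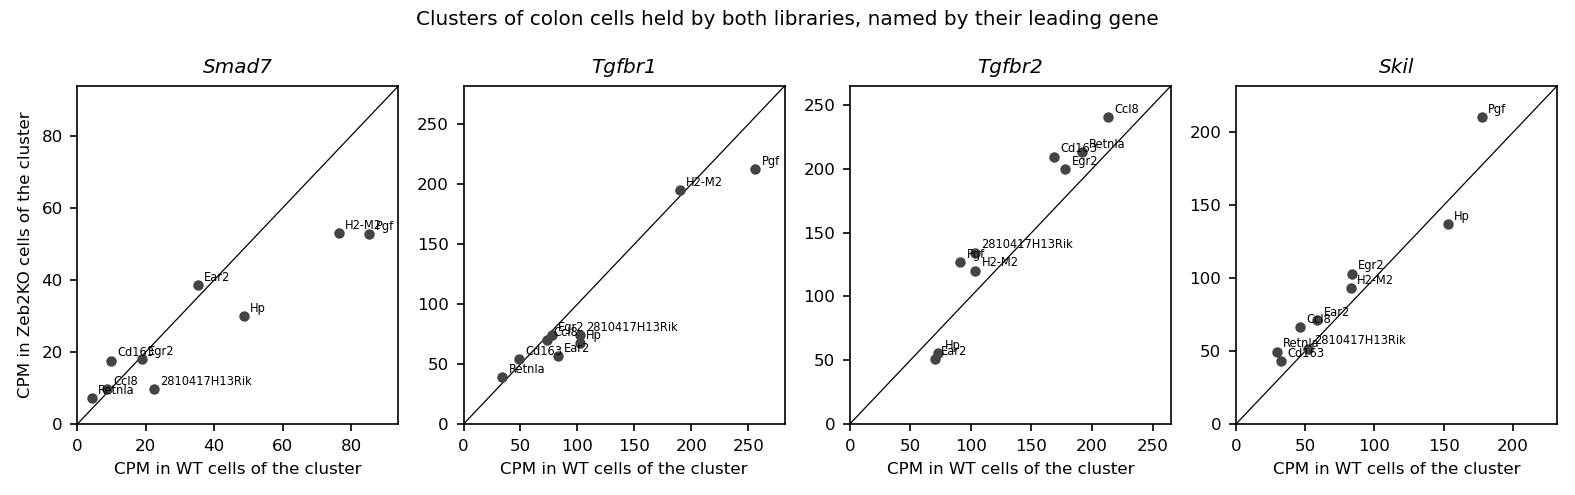
Level (CPM, linear axes from 0) of Smad7, Tgfbr1, Tgfbr2 and Skil in WT and Zeb2KO cells of the 9 colon clusters held by both libraries with 50 cells or more, each labelled with its leading gene; the line marks equal levels. Clusters spanned 34.1 to 256 CPM of Tgfbr1 in WT, Tgfbr2 lay above the line in 7 of 9, and Smad7 lay furthest below it in those led by H2-M2, Pgf, Hp and 2810417H13Rik.

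In KCs 0 of 6 members were called, beside 4.6% of genes, and the background between the 2 control libraries was 1.39% with 0 of 7 members called. Tgfbr1 was higher in Zeb2KO KCs by 0.72 (ratio 1.66, interval 1.56 to 1.78), just past the spread of the liver controls, but by 0.24 against the Nr1h3fl/fl WT library. Tgfb1 was higher by 0.40 and 0.58 against the 2 controls. Tgfbr2 was lower by 0.43 and 1.08, and with the Nr1h3fl/fl WT library it was the 1 member of 7 called, beside 8.22% of genes. Skil was lower by 0.09 and 0.84, the latter past the spread of the liver controls, and Smad4 was at 0.01 and -0.59. These comparisons share the Zeb2KO library. The list of immediate early genes, 12 genes that include the heat shock genes Hspa1a and Hspa1b, can respond to handling of cells among other stimuli. These genes summed to 1359 CPM in WT, 2601 CPM in Zeb2KO and 618 CPM in Nr1h3fl/fl WT KCs. Their part in these ratios was not tested.

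In AMs 1 of 6 members was called, beside 11.7% of genes. Skil was lower in Zeb2KO AMs (189.8 against 94.3 CPM; ratio 0.497, interval 0.476 to 0.519), with a log2 ratio of -1.001 that sat on the threshold. All genes at 20 CPM had a median log2 ratio of -0.31 in AMs, and relative to it Skil stood at -0.69. With edgeR's TMM scaling the ratio was -0.73, and with the median of genes of like transcript length removed it was -0.48. Tgfb1 (-0.70), Tgfbr1 (-0.64), Smad2 (-0.61) and Tgfbr2 (-0.38) were also lower on the CPM scale, but less so with transcript length. There Tgfb1 was at -0.47, Tgfbr1 at -0.12, Smad2 at -0.12 and Tgfbr2 at 0.12, and with TMM scaling Tgfb1 was at -0.43 and Tgfbr1 at -0.37. Smad4 was at -0.19, turning to 0.08 with TMM scaling. In Zeb2KO AMs the neutrophil genes S100a8 and S100a9 reached 14198 and 9363 CPM, against 22.9 and 0.0364 CPM in WT AMs, while the neutrophil markers Ly6g and Retnlg were at 0.322 CPM or less in both libraries. The part of this difference in the member ratios was not tested. In SMs 0 of 6 members were called, beside 3.43% of genes, and the largest ratio was that of Smad4, at -0.35. The immediate early genes summed to 9882 CPM in WT and 5586 CPM in Zeb2KO SMs.

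Clusters at least 9 times more common in Zeb2KO than in WT cells held 95.1% of Zeb2KO microglia, 22.3% of CMs, 72.8% of KCs, 89.9% of AMs and 80.4% of SMs. The member genes were not among the genes used for clustering. The enriched clusters are not the same as cells without Zeb2. In liver they included one led by Siglecf and one led by Cx3cr1 and Ccr2. The paper defined KCs that expressed Cx3cr1 and Ccr2 but lacked Siglecf and Timd4 as Zeb2+/- cells, putatively derived from monocytes. In liver, Tgfbr1 was at 105 CPM (interval 100.2 to 109.6) in the enriched clusters, 71.5 CPM (65.6 to 77.8) in the other Zeb2KO KCs and 56.5 CPM (53.6 to 59.6) in WT KCs outside them. Tgfb1 had the same order there, at 366, 296 and 260.5 CPM. In colon, Tgfbr2 was at 78.3 CPM in the enriched clusters, 178 CPM in the other Zeb2KO CMs and 131 CPM in WT CMs. The larger of the enriched clusters, led by Hp, was low in Tgfbr2 in its few WT cells too (73.1 CPM in 50 WT cells and 55.5 CPM in Zeb2KO cells). How much of the contrast lay between clusters was not tested. Skil was at 129.6 CPM in the enriched clusters of CMs, against 84.4 CPM in the other Zeb2KO CMs and 71.7 CPM in WT. In the Hp cluster itself Skil was at 153 CPM in WT and 137 CPM in Zeb2KO cells. In microglia, the enriched cluster led by Nr4a2, Nr4a3 and Il1b held 317 CPM of Skil, and one led by Siglecg and Tnfsf8 held 124 CPM. In AMs, Skil was low both in the enriched clusters (95.1 CPM) and in the other Zeb2KO cells (87.7 CPM), against 189.8 CPM in WT.

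Cells removed as other types by the marker lists also held these RNAs, in libraries where at least 50 were found. Smad7 was at 49.7 and 46.2 CPM in B cells of the WT and Zeb2KO spleen libraries, above the 9.64 and 7.66 CPM of SMs. It was at 107 and 102 CPM in the cells removed as endothelial from the WT and Zeb2KO liver libraries. Mac markers were little reduced in that cluster, with a mean log2 ratio of -0.64 over the other liver cells. The ratio was -0.37 in a spleen cluster led by Fcer2a and removed as B cells. Whether such clusters held doublets with macs or mac RNA was not tested. Tgfbr1 was at 34.6 and 38.3 CPM in spleen B cells, below SMs. Smad3 was at 21.5 and 27.1 CPM in colon fibroblasts, above CMs. These cells were left out of the levels above, at 0 to 27.4% of a library.

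Some genes around the 8 members passed the 2-fold rule in several tissues. Among the immediate targets of TGF-beta, Bhlhe40, a transcription factor gene, was called higher in microglia (1.46 to 25.6 CPM), CMs (30.7 to 74.6 CPM) and KCs (15.4 to 38.8 CPM), and was at 317 and 244 CPM in WT and Zeb2KO AMs and at 209 and 276 CPM in SMs. Cdkn1a, a cell cycle inhibitor gene, was called higher in KCs (15.4 to 50.5 CPM) and SMs (9.24 to 59.6 CPM), and Tgfbi, which encodes a matrix protein, in KCs (132 to 281 CPM). Bhlhe40 in microglia and KCs, and Cdkn1a in KCs and SMs, reached 20 CPM through the Zeb2KO library alone. In KCs the immediate early genes summed to 1359 CPM in WT and 2601 CPM in Zeb2KO, with 7 of 12 called higher. Their part in the KC values was not tested. Klf10, a transcription factor gene, was called lower in AMs (112 to 33.6 CPM). The list had 12 genes at 20 CPM in microglia, where 8.34% of all genes were called in either direction. CMs had 11 such genes (1.56%), KCs and SMs 9 each (4.6% and 3.43%) and AMs 10 (11.7%).

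**Figure D4:**
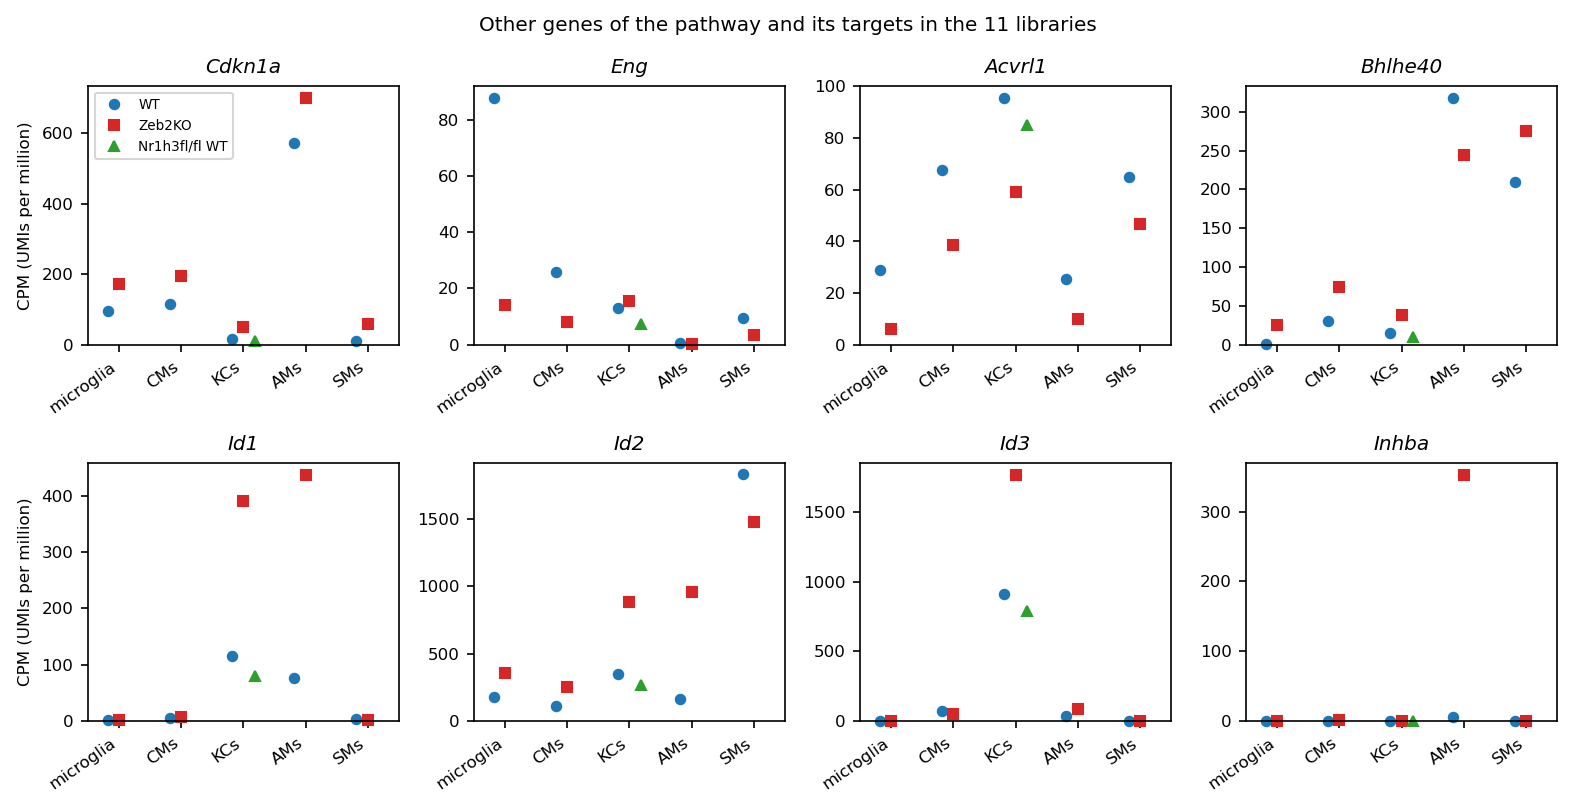
Level (CPM, linear axes from 0) of 8 further genes of the pathway and its targets in the WT, Zeb2KO and Nr1h3fl/fl WT libraries of each tissue. Acvrl1 was lower and Cdkn1a higher in Zeb2KO in 5 of 5 tissues, and Inhba reached 353 CPM in Zeb2KO AMs alone.

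Among 13 receptors and co-receptors, the 2 that were called between Zeb2KO and WT libraries of the 5 tissues belong to the ALK1 arm of the family, best known from endothelium. Acvrl1, which encodes the type I receptor ALK1, was lower in Zeb2KO in 5 of 5 tissues, from 28.9 to 6.20 CPM in microglia, 67.7 to 38.5 CPM in CMs, 95.6 to 59.0 CPM in KCs, 25.3 to 9.93 CPM in AMs and 64.9 to 46.5 CPM in SMs, and lower under TMM scaling and with transcript length as well. The 7 endothelial markers summed to 31.5 and 20.5 CPM in WT and Zeb2KO microglia and to 20.8 and 11.8 CPM in CMs. The sums were 556 and 379 CPM in KCs, 3.61 and 5.42 CPM in AMs and 285 and 192 CPM in SMs, lower in 4 of 5 tissues. Cdh5, of the KC list and a core KC gene in the paper, was at 378 and 205 CPM in WT and Zeb2KO KCs. The KC sum therefore does not stand for endothelial RNA alone. The 7 erythroid markers were lower in Zeb2KO in 5 of 5 tissues, from 609 to 40.2 CPM in microglia and from 2509 to 2148 CPM in SMs. The part of either list in the Acvrl1 and Eng values was not tested. Eng, which encodes endoglin, the co-receptor of ALK1, went from 87.7 to 14.2 CPM in microglia and from 25.8 to 8.03 CPM in CMs. Called lower were Eng and Acvrl1 of 5 receptors in microglia (8.34% of all genes called in either direction), Eng of 5 in CMs (1.56%), Acvrl1 of 5 in AMs (11.7%), and 0 of 4 and 0 of 5 in KCs (4.6%) and SMs (3.43%), and none was called higher. Each called gene reached 20 CPM through the WT library alone in the tissue of its call. Bmpr1a, a BMP receptor gene of this list, stayed under 20 CPM and was named after its values were seen. It was at 14.2 and 0.924 CPM in WT and Zeb2KO KCs, and at 5.10 and 19.8 CPM in AMs. Over the 5 pairs, edgeR gave log2 fold changes of -1.03 (SE 0.23, adjusted p = 0.222) for Acvrl1 and -1.33 (SE 0.42, adjusted p = 0.314) for Eng.

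Ligand and target genes of the related BMP and activin branch were called higher mainly in KCs and AMs. Id1, an inhibitor of DNA-binding and a direct BMP target, was at 116 and 390.4 CPM in WT and Zeb2KO KCs and at 76.2 and 437 CPM in AMs. Id2 was at 351 and 883 CPM in KCs, 163 and 955 CPM in AMs, 112 and 254 CPM in CMs and 180.1 and 354 CPM in microglia, but at 1833 and 1480.3 CPM in SMs. Id3 was called higher in AMs (34.8 to 84.7 CPM) and was at 913 and 1767 CPM in WT and Zeb2KO KCs. Inhba, the activin A subunit gene, was at 5.68 CPM in WT and 353 CPM in Zeb2KO AMs (ratio interval 53.0 to 73.1) and at 2.17 CPM or less in every other library. Of this list 4 of 5 genes were called higher in AMs (11.7% of all genes called in either direction), 2 of 3 in KCs (4.6%) and 1 of 4 in CMs (1.56%), 0 of 1 in microglia, and in SMs Bmp2 of 3 was called lower. These are the genes of an 11-gene list that reached 20 CPM, Inhba in AMs through the Zeb2KO library alone. In the same pairs the immediate early genes summed to 1359 and 2601 CPM in WT and Zeb2KO KCs, with 7 of 12 called higher, and the 6 neutrophil markers to 34.9 and 23658 CPM in AMs, nearly all of it S100a8 and S100a9. The part of either in these values was not tested.

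The remaining lists gave few calls. Of the 8 SMAD genes, 3 reached 20 CPM in CMs and 4 in each of the other tissues, and 0 of these were called, beside the 1.56 to 11.7% of all genes called. Smad6, an inhibitory SMAD of the BMP branch that stayed under 20 CPM, had log2 ratios of -1.18 in SMs (3.53 to 0.999 CPM) to 1.02 in AMs (1.13 to 3.33 CPM), and was named after its values were seen. Smad1 and Smad5, SMADs of the same branch also named after their values were seen, were lower in Zeb2KO in 5 and 4 of 5 tissues. Over the 5 pairs edgeR gave log2 fold changes of -0.43 (SE 0.12, adjusted p = 0.267) for Smad1 and -0.41 (SE 0.13, adjusted p = 0.333) for Smad5. Of the ligands and their activators, Itgav, a subunit of the integrins that release active TGF-beta, was called lower in microglia (66.3 to 22.7 CPM), and 0 were called in the other tissues, with 6 to 8 of the 17 genes at 20 CPM in a tissue. In microglia this was 1 of 6, beside 8.34% of all genes. Tgfb2, a further TGF-beta ligand gene, lay just under that level in WT AMs and was at 18.04 CPM there and at 0.241 CPM in Zeb2KO AMs (ratio 0.0134, interval 0.00609 to 0.0256), named after its values were seen. Of 8 microglial genes that need TGF-beta, Fcrls was called lower in microglia (2580 to 932 CPM) and the other 7 were not called there. All 8 were lower in Zeb2KO microglia, with a median log2 ratio of -0.60 against -0.09 for all genes, as for Gpr34 (2156 to 1284 CPM) and Olfml3 (2296 to 1462 CPM), named after their values were seen. Between the same 2 libraries the 7 erythroid markers summed to 609 and 40.2 CPM and the 12 immediate early genes to 23977 and 18624 CPM, and their part in this shift was not tested. Pros1 of the list of microglial genes, which encodes protein S, was called lower in KCs (43.8 to 19.1 CPM) and AMs (187 to 77.98 CPM). The genes of this list called were thus 1 of 8 in microglia (8.34% of all genes), 1 of 3 in KCs (4.6%) and 1 of 2 in AMs (11.7%). In CMs 0 of 7 (1.56%) and in SMs 0 of 3 (3.43%) were called. Among the partners and regulators of SMADs, Zeb1, the paralog of Zeb2, was at 25.9 and 68.9 CPM in WT and Zeb2KO microglia and was higher in Zeb2KO in 5 of 5 tissues, with a log2 fold change of 1.20 (SE 0.15) and an adjusted p of 0.125 (edgeR). Smurf1, a ubiquitin ligase that acts on SMADs and receptors, was called higher in AMs (11.7 to 27.2 CPM), where it reached 20 CPM through the Zeb2KO library alone. Of this list Zeb1 and Zeb2 of 18 genes were called in microglia (8.34% of all genes) and Zeb2 of 14 in KCs (4.6%). Smurf1 and Skil of 19 were called in AMs (11.7%), near the share of all genes. In CMs 0 of 16 (1.56%) and in SMs 0 of 19 (3.43%) were called.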

How the data were processed

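UMI counts of 27998 genes were analysed in the 11 libraries. The deposited counts had been made by the authors with Cell Ranger on the mouse genome mm10, 1 table of genes by cell barcodes per library, with no normalization. Cells were kept when log UMIs and log genes lay within 3 median absolute deviations of their library and the mitochondrial share was no further above it, which took out 4.66 to 9.22% of barcodes. Cells were clustered per tissue with scanpy 1.11.5 and leidenalg 0.10.2 (2000 variable genes without the listed genes, 30 components, 15 neighbours, resolution 0.8), clusters of other cell types were removed by marker lists, and UMIs were summed over the remaining cells, 7362998 to 42998103 per library. A doublet caller marked under 0.5% of cells and was taken not to have worked, so the 5% of cells with the highest doublet scores were left out in an alternative.

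The 5 WT and Zeb2KO pairs were fitted in edgeR 4.0.16 (R 4.3.3, TMM factors, filtering of low counts, quasi-likelihood F test, tissue as block), with Benjamini-Hochberg adjustment over all 12126 genes and a threshold of 0.05. The fit held 1 library per genotype and tissue, so its error includes how far the genotype difference varied between tissues. The common shift was judged against that variation. The tissue test took the WT and Zeb2KO libraries of a tissue as its 2 libraries. How many animals a library holds is not given in the sources used here, so p-values measure the spread between these libraries, which may also be technical. DESeq2 1.42.0, other size factors, filters, pseudocounts, cell sets, the other liver control and omission of each pair were alternatives. The fit was also run on simulated data with known changes, each the same in all 5 tissues. Such data do not show its power where changes differ between tissues. Named genes were the 8 members, genes of the pathway lists called in a test or by the rule of size, Zeb1 and Zeb2, the 2 genes most alike to each member, and for clusters their leading genes. Bmpr1a, Smad1, Smad5, Smad6, Tgfb2, Gpr34 and Olfml3, and the single cell type markers given with a value, fall outside this rule and were named after their values were seen. The members and lists were chosen with earlier results of these data known. A withheld item of these lists is not reported here.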

Additional observations from a re-analysis of the deposited data

Results flagged for a closer look

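Of the 8 genes, the log2 ratio of Zeb2KO over WT cells in the 5 tissues held 1 value far from the rest. Smad2 was at -0.61 in AMs, and the nearest of the other tissues, SMs, was at -0.17. This gap was 0.835 of the whole range, above Dixon's critical value of 0.71 for 5 values, which chance exceeds in about 1 of 20 sets, and it was the most extreme of the 8 sets tested. All genes had a median of -0.31 in AMs, and with the median of genes of like transcript length removed Smad2 was at -0.12 there and at -0.15 in CMs. With the median of all genes of each tissue removed, Smad2 ran from 0.003 in microglia to -0.30 in AMs, with SMs at -0.15. The gap on these scales was not tested.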

How the results depend on the processing

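The count of members called for a common shift was 0 in all 13 alternatives. For tissue differences it was 8 in the main fit and 6 to 8 in 9 alternatives. Within tissues, the count in AMs (1, Skil) was 0 with TMM factors, with the mean of each cell's CPM, with a pseudocount of 5 and with transcript length, and in KCs it was 1 (Tgfbr2) with the Nr1h3fl/fl WT library as control. The log2 fold changes over the 5 pairs, none of them called, changed sign as follows, and the cause was not tested. With no filter on low counts Tgfb1 was at 0.0050. With no tissue block Tgfb1 was at 0.014 and Tgfbr2 at 0.0094. With the Nr1h3fl/fl WT library Tgfb1 was at 0.049, Tgfbr1 at -0.033 and Skil at -0.12. With each pair left out in turn, the values ran from -0.10 to 0.10 for Tgfb1, -0.11 to 0.17 for Tgfbr1, -0.092 to 0.083 for Tgfbr2, -0.081 to 0.030 for Smad4 and -0.11 to 0.20 for Skil. Across all genes, edgeR called 4 of 20121 without the filter and 0 to 3 with a pair left out. No paired analysis was possible because the labels give no replicate numbers shared by the groups, beyond the tissue block of the main fit. Smad3 in AMs rests on 3 UMIs, and 1 library per genotype and tissue limits every ratio within a tissue.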
